A study of Mus musculus with 6 samples.

Results

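The acyl-CoA synthetases are the enzymes that join a fatty acid, or a shorter acid such as acetate, to coenzyme A. The 10 genes described here were taken by their symbols from the 48967 genes with exonic parts in the counts: Acsl1, Acsl3, Acsl4, Acsl5 and Acsl6 for long-chain fatty acids, Acss1 and Acss2 for acetate, Acsf2 and Acsf3 of the ACSF branch, and Acsbg1 of the bubblegum branch. All 10 had at least 1 count in some library.

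RNA was sequenced from mouse 2-cell embryos of genotype wt and strain F1 (C57Bl/10 X CBA/H), in 3 control and 3 delipidated libraries, each from a pool of 3 embryos labelled day 2. In the delipidated group the zygotes were treated with cytochalasin B, centrifuged, exposed to a hyperosmotic sucrose medium and opened by laser at the zona pellucida, and the lipid droplets were then drawn out with a pipette. The labels give that protocol for both groups and do not say whether control zygotes also received cytochalasin B or were centrifuged. Libraries were made from total RNA with a strand-specific kit for low input after depletion of rRNA, and read as pairs of 150 bases. Both groups were cultured in KSOM free of fatty acids from 0.5 to 2.0 dpc. By the study's methods, embryos of several females were mixed and then allotted at random to the groups, so no library stands for a separate animal and the spread between libraries is that between pools of embryos.

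Acyl-CoA is the form in which cells use fatty acids, for triacylglycerol and lipid droplets, for membrane phospholipids and for oxidation in mitochondria. The family members differ in the acids they prefer and in the membranes they sit on, and oocytes and early embryos hold stores of lipid droplets. The comparison asks which members a 2-cell embryo holds as RNA, and whether that RNA differs after the droplets of the zygote were removed.

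The counts assigned to genes were 12164963, 16165958 and 12980787 in control replicates 1, 2 and 3 and 20059460, 16332103 and 14683741 in delipidated replicates 1, 2 and 3. A count here is a read in an exonic part, a piece of exon that does not overlap another piece, and a read that spans several parts is counted in each. Values in CPM, the usual unit of counts scaled to a library, were scaled to the library total over the genes tested and to edgeR's TMM factor. Levels of different genes are compared as CPM per kb of summed part length. A count of 0 allows up to 3 reads, for counting error alone. As 3 counts this is 0.148 to 0.253 CPM depending on the library, and it is more where a read spans several parts.

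The libraries carried the transcripts of their stage. All 8 markers of the 2-cell stage and all 10 oocyte transcripts on the lists had counts in every library. Of the 2-cell markers, 6 had positive and 2 negative log2 fold changes (median 0.14), and of the oocyte transcripts 7 had positive and 3 negative ones (median 0.12), beside a median of -0.00073 over all 16020 genes tested. The smallest p-values on these lists belonged to Tdpoz4, with a log2 fold change of 0.74 (SE 0.58), and Tcstv1, with 0.35 (SE 0.48), and to Zp2, with -0.41 (SE 0.34), and Zar1, with 0.32 (SE 0.37).

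Acsl3 had the highest level of the 10 genes in these embryos. Acsl3, Acsl4, Acsf2 and Acsl1 together made up 92.6% ± 3.57 (SD, n = 3) of the summed CPM per kb of the 10 genes in the control and 92.9% ± 0.894 (SD, n = 3) in the delipidated libraries. Acsl3 alone held 45.3% ± 4.26 and 48.6% ± 5.13 (SD, n = 3 each), while Acsl1 held 12.5% ± 4.28 and 5.29% ± 3.24 (SD, n = 3 each). The summed level of the 10 genes was 38.7, 49.3 and 45.6 CPM per kb among control libraries against 53.0, 49.2 and 41.1 CPM per kb among delipidated ones. These sums overlapped between the groups, with means of 44.5 ± 5.37 and 47.8 ± 6.06 CPM per kb (SD, n = 3 each). Aacs, a synthetase outside these 10, is not in the sums. In control and delipidated libraries it had 130 ± 42.6 and 90.1 ± 30.2 CPM over 3854 bases (SD, n = 3 each). Acsl3 had 83.5 ± 16.6 and 95.8 ± 19.6 CPM over 4113 bases, so its first place is stated for the 10 genes alone.

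Over the 6 libraries the mean level was 21.8 ± 4.27 CPM per kb (SD) for Acsl3, 10.6 ± 5.84 for Acsl4, 6.47 ± 2.61 for Acsf2, 3.92 ± 1.95 for Acsl1 and 1.62 ± 1.11 for Acss2. The others followed with 0.722 ± 0.307 CPM per kb (SD, n = 6) for Acsl6, 0.545 ± 1.08 for Acsbg1, 0.202 ± 0.166 for Acss1, 0.156 ± 0.223 for Acsf3 and 0.117 ± 0.153 for Acsl5. Acsl3 lay above Acsl4 in 6 of 6 libraries and beyond their spread. No other neighbours in the order differed beyond their spread: Acsl4 lay above Acsf2 in 3 of 6 libraries, Acsf2 above Acsl1 in 5 and Acsl1 above Acss2 in 5. Farther down, Acss2 lay above Acsl6 in 4 libraries and Acsl6 above Acsbg1 in 5. The first 5 places were the same in the control and in the delipidated libraries. The order depends on how a level is made. Acsl3 was first by every measure tried except the last 3′ part alone, by which Acsf2 came first and Acsl3 next.

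**Figure D1:**
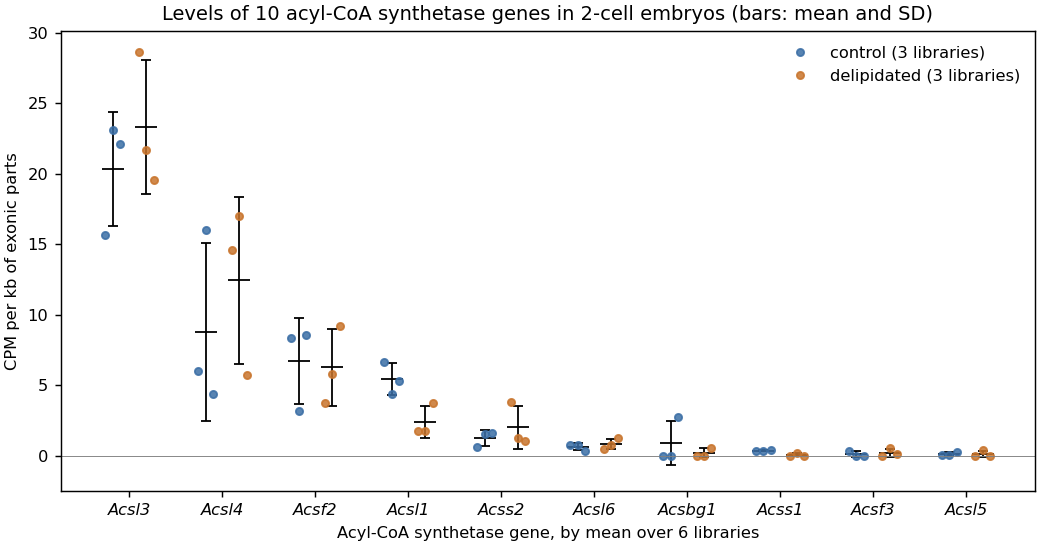
Level of each of the 10 genes in CPM per kb of exonic parts, with 1 point per library (3 control, 3 delipidated) and black bars for the mean and SD of a group. Acsl3 lies between 15.7 and 28.7 CPM per kb, and the 5 genes from Acsl6 to Acsl5 have means under 1 CPM per kb over the 6 libraries.

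Delipidated and control embryos were compared gene by gene with edgeR's quasi-likelihood test over 16020 genes, and a call needed a Benjamini-Hochberg adjusted p under 0.05 and a log2 fold change beyond 1. Of the 10 members, 7 passed the filter on low counts, and 0 were called higher and 0 lower. The same test called 0% of all genes tested in either direction. At an unadjusted p under 0.05, 1 member was found, Acsl1, lower in delipidated embryos, against 2.89% of all genes tested (1.15% higher and 1.74% lower). DESeq2's Wald test with no filter and limma-voom also called 0 members, each with 1 member at an unadjusted p under 0.05. Over all genes, DESeq2 gave such a p for 1341 of 30850 genes and called 9 higher and 40 lower, and limma-voom gave it for 619 of 16020 and called 0. The groups did not overlap for 2 tested members, Acsl1 and Acss1, both higher in control libraries, against 8.86% of all genes tested (5.05% with control higher and 3.81% with delipidated higher). Acss1 met the filter through its control libraries and had 0 counts in delipidated replicates 1 and 3, so its separation and sign are not read as results. For Acss1 the separation also ended when parts shared with E130215H24Rik, on the other strand, were left out. The fold change was above 0 for 4 tested members and below 0 for 3, Acss1 among them, and its median was 0.20 on the log2 scale. These signs depended on single libraries for Acsl6, Acss2 and Acsf2. Acsl5, Acsf3 and Acsbg1 did not pass the filter, which asks for counts in several libraries.

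**Figure D2:**
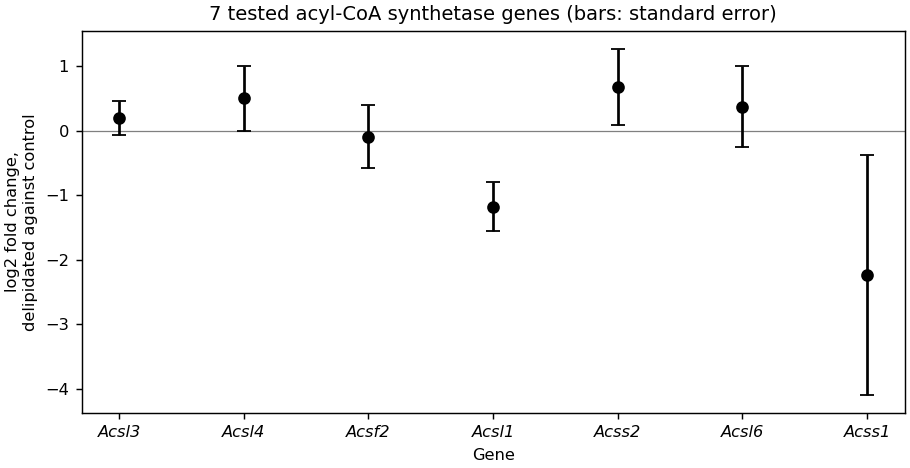
Log2 fold change of delipidated against control embryos for the 7 tested genes, in order of their level, with the standard error from edgeR as bars. Acsl1, at -1.18, has the bar farthest from 0 relative to its length, while Acss1, at -2.24, has a standard error of 1.87.

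Acsl3 is found on the endoplasmic reticulum and on lipid droplets, where it is known for its part in droplet formation. The gene (ENSMUSG00000032883) sits at the GRCm38 position chr1:78657825-78707743. Its counts were 764, 1572 and 1198 in control replicates 1, 2 and 3 and 2387, 1450 and 1141 in delipidated replicates 1, 2 and 3, or 64.5, 95.1 and 91.1 CPM against 118, 89.1 and 80.5 CPM. Delipidated replicate 1 was the highest library and control replicate 1 the lowest, and the other libraries of both groups lay between them. The log2 fold change was 0.20 (SE 0.26), smaller than its error, and edgeR's adjusted p was 1.00. The fold change was 0.02 without delipidated replicate 1 and 0.05 without control replicate 1. With the single part that held most counts in each library in place of the sum, its sign turned, to -0.21 (SE 0.30).

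The counts of Acsl3 are listed under an identifier that it shares with Utp14b (ENSMUSG00000079470), which codes for a protein of ribosome assembly and lies near the 5′ end of Acsl3 on the same strand. The shared identifier covers 32 parts and held 4811, 7468 and 5957 counts among control libraries against 8766, 6035 and 4646 counts among delipidated ones. In the annotation 24 parts with 4113 bases overlap exons of Acsl3 alone, 5 parts with 7435 bases overlap Utp14b alone, and 3 parts with 244 bases overlap both and were left out. Between 15.9% and 27.2% of the counts under the shared identifier were assigned to Acsl3. A single part of Utp14b, chr1:78664326-78667584, held 3565, 4827 and 4140 counts among control libraries against 5444, 4016 and 3136 among delipidated ones. So the sum under the shared identifier is mostly Utp14b, and the values of Acsl3 given here rest on the parts assigned to it.

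**Figure D3:**
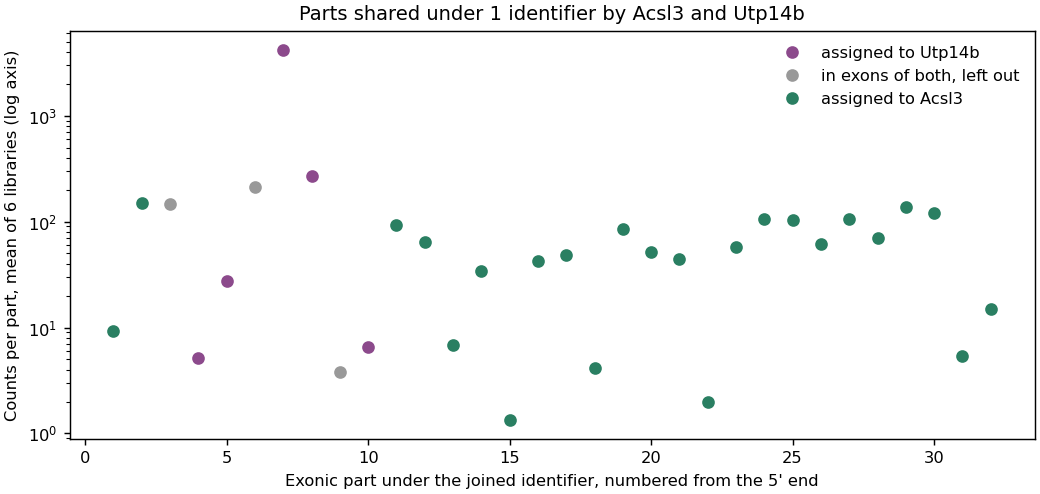
Mean count over 6 libraries (log axis) of each of the 32 exonic parts under the identifier shared by Acsl3 and Utp14b, numbered from the 5′ end. A single part of Utp14b, at a mean of 4188 counts, lies above every part of Acsl3, whose means run from 1.33 to 151.

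Acsl3 was counted past its first exon in all libraries. Its 22 parts from chr1:78681593-78707743 held 608, 1379 and 1002 counts among control libraries against 2227, 1290 and 1044 counts among delipidated ones. The pair of parts of its first exon, chr1:78657825-78658037, held 156, 193 and 196 counts against 160, 160 and 97. RefSeq places the starts of Acsl3 and of Utp14b at the same base, whereas GENCODE M21, by which these parts were assigned to Acsl3, has Utp14b after them, at chr1:78658038-78671512. By the RefSeq models reads in the first exon could come from either gene. The first exon took 16.4% ± 4.07 (SD, n = 3) of the counts of Acsl3 in the control and 8.75% ± 2.18 (SD, n = 3) in the delipidated libraries. These shares did not overlap, with a two-sided exact permutation p of 0.1. Groups of 3 libraries allow no smaller p. That p was 0.6 after Benjamini-Hochberg adjustment over the 6 exon shares compared. The log2 fold change of Acsl3 without the first exon was 0.32 (SE 0.28), an alternative chosen after the data were seen.

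The 300 bases around the start that RefSeq gives to both Acsl3 and Utp14b are shown because the annotations differ on which gene holds it. Their strand is forward, their source is the RefSeq promoter table of build GRCm38.p6, and most of the window lies upstream of the start, chr1:78657575-78657874. Capitals mark matches on both strands of the GC box (GGGCGG) and the CCAAT box. The window had a GC content of 74.0% and a ratio of observed to expected CpG of 0.843, beside medians of 52.7% and 0.384 over 32851 promoters of the same length. It held 5 GC boxes and 1 CCAAT box.
Acsl3 start: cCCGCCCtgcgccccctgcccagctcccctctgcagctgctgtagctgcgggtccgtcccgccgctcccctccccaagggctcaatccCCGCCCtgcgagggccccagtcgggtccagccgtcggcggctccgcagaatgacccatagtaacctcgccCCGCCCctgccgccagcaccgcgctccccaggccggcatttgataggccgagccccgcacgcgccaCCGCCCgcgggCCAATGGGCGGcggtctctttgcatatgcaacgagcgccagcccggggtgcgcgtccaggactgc

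The genes whose pattern over the 6 libraries was most like that of Acsl3 were Isg20l2, Tnip1 and Ddx55. The root mean square difference from Acsl3 in log2 CPM, each gene centred on its own mean, was 0.045 for Isg20l2, 0.049 for Tnip1 and 0.055 for Ddx55 over the 6 libraries. They are the nearest picked from all genes tested, over 6 values each. Whether such small differences exceed those that picking alone gives was not tested.

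Acsl1 makes acyl-CoA for triacylglycerol synthesis and for oxidation, and is known best from liver, fat and heart. The gene (ENSMUSG00000018796) lies on the forward strand, chr8:46471037-46536051, and has 48 exonic parts with 10483 bases. Acsl1 had 828, 752 and 731 counts in control replicates 1, 2 and 3 and 366, 302 and 551 counts in delipidated replicates 1, 2 and 3, or 69.9, 45.5 and 55.6 CPM against 18.1, 18.6 and 38.9 CPM. All 3 delipidated libraries lay below all 3 control libraries, and delipidated replicate 3 was the closest to them. The means were 57.0 ± 12.3 and 25.2 ± 11.9 CPM (SD, n = 3 each; two-sided exact permutation p = 0.1). The log2 fold change was -1.18 (SE 0.38). Its unadjusted p from edgeR was 0.0099, in place 93 of 16020, and the adjusted p was 1.00, so Acsl1 did not pass the test. Over the alternatives the adjusted p ran from 0.257, with DESeq2's Wald test, to 1.00. Leaving out 1 library at a time, the log2 fold change ran from -1.64, without delipidated replicate 3, to -0.99. With the single part that held most counts in each library in place of the sum, it was -0.50 (SE 0.49).

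Fewer exonic parts of Acsl1 held counts in delipidated replicates 1 and 2 than in the other libraries. Parts with counts numbered 42, 34 and 40 among control libraries against 18, 22 and 40 among delipidated ones. The part with most counts held 62, 65 and 46 counts among control libraries against 32, 68 and 49 among delipidated ones, which overlap. Parts up to and including the upstream exon of 78 bases described next held 243, 278 and 426 counts against 108, 32 and 192, and the parts 3′ of this region held 585, 474 and 305 counts against 258, 270 and 359. For the first of these regions the groups did not overlap, while for the other delipidated replicate 3 lay above control replicate 3. The last exon held 234, 187 and 149 counts among control libraries against 108, 149 and 92 among delipidated ones, not scaled to the library. Control replicate 3 and delipidated replicate 2 tie at 149. They had 12980787 and 16332103 counts assigned to genes, so their scaled levels differ. Of the counts of Acsl1, 8, 17 and 80 among control libraries against 0, 0 and 9 among delipidated ones were on parts that overlap Gm45244 on the opposite strand. The kit was strand-specific, but the labels do not say whether strands were separated in counting, so a count there may come from either gene.

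**Figure D4:**
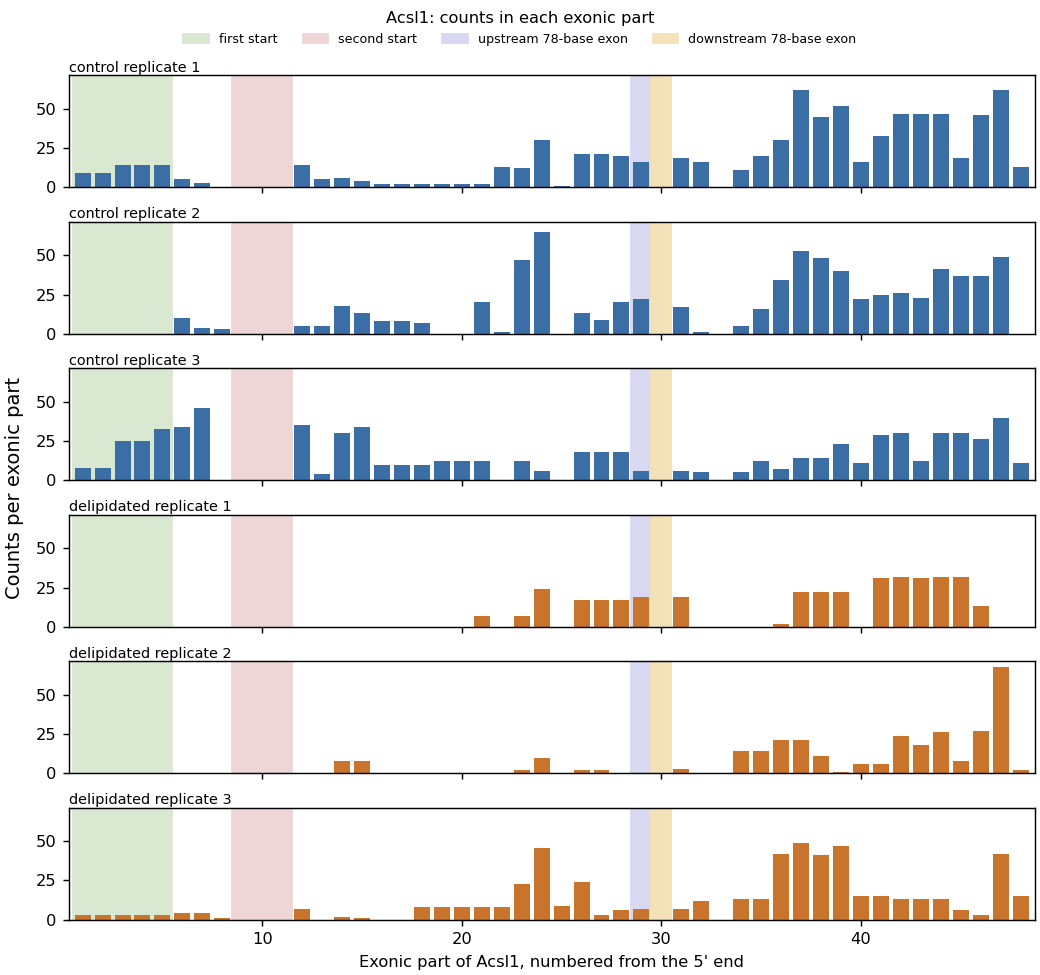
Counts in each of the 48 exonic parts of Acsl1, numbered from the 5′ end, with 1 panel per library and shading for the exons of its annotated starts and for its 78-base exons. Parts of the second start and the downstream 78-base exon are at 0 in all 6 libraries, and delipidated replicates 1 and 2 have counts in 18 and 22 parts.

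Acsl1 is annotated with more than 1 start. The exon of the first start, chr8:46471037-46471230, held 60, 0 and 99 counts among control libraries against 0, 0 and 15 among delipidated ones. Its share of the counts of Acsl1 was 6.93% ± 6.78 and 0.907% ± 1.57 (SD, n = 3 each; two-sided exact permutation p = 0.4, adjusted 0.8). The exon of the second start, chr8:46490966-46491161, had 0 counts in all 6 libraries. The exon with the start codon, which follows both, held 25, 28 and 69 counts among control libraries against 0, 8 and 9 counts among delipidated ones. Where a start was seen it was the first, and 3 of 6 libraries showed neither.

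The promoter windows of both starts of Acsl1 are shown because their base content differs and counts were found at one alone. Both are from the RefSeq promoter table of build GRCm38.p6, on the forward strand, chr8:46470787-46471086 for the first start and chr8:46490716-46491015 for the second. Motifs searched on both strands were the GC box (GGGCGG), the CCAAT box spelled by its name, the TATA box (TATAAA), the E-box (CACGTG) and a sterol element (TCACNCCAC), and capitals mark their matches, of which neighbouring GC boxes may overlap. The first window held 7 GC boxes, with a GC content of 74.0% and a CpG ratio of 0.859. The second held 2 CCAAT boxes and 1 sterol element, with a GC content of 50.0% and a CpG ratio of 0.214. Over the 32851 promoters of 300 bases, 35.7% held a GC box, 37.4% a CCAAT box, 13.6% a TATA box, 7.15% an E-box and 1.24% the sterol element. All 10 members were in the table, with 13 promoters, of which 9 held a GC box, 8 a CCAAT box, 1 the sterol element and 0 a TATA box or an E-box. Of the 13, 10 lay above the median GC content. A match is a run of letters and not a shown site.
Acsl1 first start: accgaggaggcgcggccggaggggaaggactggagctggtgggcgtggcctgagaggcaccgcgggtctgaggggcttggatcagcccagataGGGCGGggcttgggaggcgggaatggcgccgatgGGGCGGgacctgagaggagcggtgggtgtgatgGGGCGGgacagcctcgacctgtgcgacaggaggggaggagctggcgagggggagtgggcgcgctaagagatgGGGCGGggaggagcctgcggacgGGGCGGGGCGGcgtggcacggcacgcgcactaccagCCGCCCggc
Acsl1 second start: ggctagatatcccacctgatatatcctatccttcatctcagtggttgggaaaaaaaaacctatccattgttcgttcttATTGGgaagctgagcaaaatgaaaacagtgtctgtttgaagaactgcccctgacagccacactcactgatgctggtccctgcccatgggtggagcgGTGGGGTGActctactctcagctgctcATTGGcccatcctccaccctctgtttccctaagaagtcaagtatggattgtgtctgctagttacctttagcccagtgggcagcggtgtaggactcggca

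Acsl1 and Acsl6 each have a pair of alternative exons of 78 bases that code for the gate region of the enzyme, through which the fatty acid enters. In Acsl1 the upstream exon, chr8:46521268-46521345, held 16, 22 and 6 counts among control libraries against 19, 0 and 7 among delipidated ones, while the downstream exon, chr8:46521410-46521487, had 0 in all 6. In Acsl6 the upstream exon, chr11:54336936-54337013, had 8 counts in delipidated replicate 3 and 0 elsewhere, and the downstream exon, chr11:54337071-54337148, had 0 in all 6. So the exon form of Acsl1 seen in 2-cell embryos was the upstream one, in 5 of 6 libraries, and for Acsl6 the counts were too few to tell. The share of the upstream exon in the counts of Acsl1 was 1.89% ± 1.05 and 2.15% ± 2.71 (SD, n = 3 each; two-sided exact permutation p = 0.9, adjusted 0.9). The 4 exons are printed to show how far the alternatives differ, from GENCODE M21 transcripts of GRCm38 on the forward strand, with capitals for the bases that differ between the pair of the same gene. The pair of Acsl1 is identical at 42 of 78 bases (53.8%) and that of Acsl6 at 46 (59.0%). Across the genes the upstream exons share 49 bases (62.8%) and the downstream exons 46 (59.0%).
Acsl1 upstream: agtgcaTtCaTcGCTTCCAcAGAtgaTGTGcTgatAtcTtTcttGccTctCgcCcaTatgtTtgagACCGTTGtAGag
Acsl1 downstream: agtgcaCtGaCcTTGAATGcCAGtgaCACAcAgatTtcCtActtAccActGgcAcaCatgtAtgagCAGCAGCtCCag
Acsl6 upstream: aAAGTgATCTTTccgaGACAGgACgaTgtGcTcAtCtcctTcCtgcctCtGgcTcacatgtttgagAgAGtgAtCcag
Acsl6 downstream: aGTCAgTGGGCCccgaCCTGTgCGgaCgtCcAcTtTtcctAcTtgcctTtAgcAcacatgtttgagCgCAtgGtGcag

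The number of genes with a count separated the groups as Acsl1 did, with 22855, 22437 and 20582 genes among control libraries against 17091, 19408 and 20158 among delipidated ones. Delipidated replicates 1 and 2 were the lowest in this number, in the CPM of Acsl1 and in its parts with counts. The part of this difference in the results of Acsl1 and Acss1 was not tested. RNA of other cells was looked for beside Acsl1, with lists of markers. The 6 stromal markers summed to 18.3, 18.7 and 28.7 CPM among control libraries against 1.93, 3.50 and 4.09 CPM among delipidated ones, so this list was higher in every control library, as Acsl1 was. Its most abundant gene was Vim, with 152, 145 and 300 counts in the control and 0 in each delipidated library, and Col1a1 had 11, 26 and 42 counts against 0. Not all of the list followed: Dcn had 27 counts in delipidated replicate 3 and 0 in the other libraries, and Col1a2 had 14, 48 and 15 counts against 0, 0 and 27. Pdgfra, with 30, 83 and 21 counts against 39, 57 and 4, overlapped between the groups and was the one stromal marker counted in delipidated replicates 1 and 2. Vim and Col1a1 passed the filter on low counts through the control libraries alone and Dcn did not pass it, so no count of signs or p-values over the stromal list is given. Acsl1, unlike Vim but like Pdgfra, was counted in all 6 libraries. The part of these cells or transcripts in the Acsl1 result was not tested. In such pools, fewer cells of a type and less RNA per cell cannot be told apart.

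The sums of the other marker lists overlapped between the groups. By the study's methods, zygotes were freed of cumulus cells with hyaluronidase and then washed several times. The 10 cumulus and granulosa markers summed to 5.40, 5.44 and 10.9 CPM among control libraries against 1.38, 8.97 and 8.90 CPM among delipidated ones, with Foxl2, Ptx3 and Cd44 at 0 in all libraries and Tnfaip6 the most abundant. Of these, 2 genes were tested, Cyp19a1 with a log2 fold change of 0.03 (SE 1.47) and Tnfaip6 with 0.15 (SE 1.02). The 6 leukocyte markers summed to 7.42, 5.44 and 9.88 CPM against 2.77, 3.87 and 7.55 CPM, with Csf1r the most abundant. Csf1r had a log2 fold change of -0.72 (SE 1.05) and Laptm5 of -0.95 (SE 1.47), while Cd52, the other one of the 3 tested, had 0.87 (SE 1.64). Lyz2, which was not tested, had 2, 8 and 8 counts among control libraries and 0 in each delipidated library. Markers of oviduct epithelium, 6 genes of which 4 were tested, summed to 90.4, 249 and 123 CPM against 173, 204 and 113 CPM. Epcam, also a gene of embryos, made up most of that sum, and Krt18 had a log2 fold change of -1.26 (SE 0.78) and Ovgp1 of 0.83 (SE 1.28).

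Acsl4 prefers arachidonic acid and other polyunsaturated acids, which it directs into phospholipids. The gene (ENSMUSG00000031278) lies on the reverse strand, chrX:142317993-142390535, with 24 parts. Its counts were 383, 1432 and 309 in control replicates 1, 2 and 3 and 1598, 1494 and 437 in delipidated replicates 1, 2 and 3, or 32.3, 86.6 and 23.5 CPM against 78.9, 91.8 and 30.9 CPM. Control replicate 2 and delipidated replicates 1 and 2 were high and the remaining 3 libraries low, so the split crossed the groups. The log2 fold change was 0.50 (SE 0.51), within its error, and edgeR's adjusted p was 1.00. It was 1.27 (SE 0.48) without control replicate 2 and 0.17 (SE 0.52) without control replicate 3.

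Of the annotated forms of Acsl4, the long one was seen in a part of its own, and the short one was not measured apart from it. The long form has a start codon farther upstream, in a part of 290 bases, chrX:142351619-142351908, which held 19, 69 and 8 counts among control libraries against 49, 73 and 24 among delipidated ones. The neighbouring part of both forms, chrX:142351379-142351615, held 24, 117 and 27 counts against 196, 150 and 80. Counts per base in the long-form part were 0.457 ± 0.204 of those in the neighbouring part in the control and 0.282 ± 0.102 in the delipidated libraries (SD, n = 3 each; two-sided exact permutation p = 0.3). The long-form part held 4.12% ± 1.33 and 4.48% ± 1.26 of the counts of Acsl4 (SD, n = 3 each; two-sided exact permutation p = 0.6, adjusted 0.84). It was counted in 6 of 6 libraries, and the groups overlapped by either measure. An exon of 77 bases found in a single long transcript only, chrX:142321780-142321856, had 0 counts in all 6 libraries. An alternative exon end of 48 bases had 0, 9 and 15 counts among control libraries against 0 among delipidated ones (two-sided exact permutation p of its share = 0.4, adjusted 0.8). The last exon, of 2842 bases, held 34, 91 and 40 counts against 18, 138 and 16.

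Acsl6 (ENSMUSG00000020333), an enzyme best known from brain, had 91, 126 and 45 counts in control replicates 1, 2 and 3 and 94, 120 and 173 counts in delipidated replicates 1, 2 and 3. The groups overlapped, at 6.24 ± 2.44 and 8.08 ± 3.83 CPM (SD, n = 3 each), and the log2 fold change was 0.37 (SE 0.63) and -0.06 (SE 0.75) without delipidated replicate 3. The counts lay on 4 to 17 of its 50 parts in a library, and 26 parts had 0 in all libraries. The 12 parts of its annotated starts, chr11:54303798-54319985, were at 0 in all 6, so no start of Acsl6 was seen. The last exon held 19, 36 and 15 counts among control libraries against 0, 35 and 22 among delipidated ones, and parts that overlap Gm12224 on the opposite strand held 16, 30 and 0 against 11, 12 and 33. Acsl5 (ENSMUSG00000024981, chr19:55253369-55296627), known from intestine, had 2, 2 and 10 counts among control libraries against 0, 19 and 0 among delipidated ones, on at most 2 of its 22 parts, and was not tested.

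Acss2 makes acetyl-CoA from acetate in cytosol and nucleus. The gene (ENSMUSG00000027605) lies on the forward strand, chr2:155517948-155585724, with 43 parts. Its counts were 72, 260 and 213 in control replicates 1, 2 and 3 and 775, 200 and 146 in delipidated replicates 1, 2 and 3. Delipidated replicate 1 was far above the other libraries, which overlapped between the groups. The means were 12.7 ± 5.71 and 20.3 ± 15.6 CPM (SD, n = 3 each), with a log2 fold change of 0.68 (SE 0.59), which was -0.16 (SE 0.58) without delipidated replicate 1. Much of this count lay where other genes overlap: the 12 parts that overlap Ggt7, Gss or Acss2os on the opposite strand held 45, 167 and 167 counts among control libraries against 336, 162 and 56 among delipidated ones, and the rest of the gene 27, 93 and 46 against 439, 38 and 90. Parts under Gss, chr2:155572862-155573245, took 48.7% ± 9.92 and 41.9% ± 16.6 of the counts (SD, n = 3 each; two-sided exact permutation p = 0.7, adjusted 0.84). Without the overlapping parts, an alternative chosen after the data were seen, the log2 fold change was 1.41 (SE 0.82). Exons 8 to 17 of the main transcript held 17, 28 and 0 counts among control libraries against 353, 0 and 67 among delipidated ones, and its last exon 1, 8 and 0 against 0 in each. The level of Acss2 per kb therefore includes parts whose counts may be those of its neighbours, if strands were not separated, and most counts outside those parts came from delipidated replicate 1.

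Acss1 (ENSMUSG00000027452, chr2:150618105-150668500), the mitochondrial enzyme for acetate, was near the limit of detection. It had 15, 21 and 21 counts among control libraries against 0, 14 and 0 among delipidated ones, so each delipidated library lay below each control library in CPM. Since the control libraries carried Acss1 through the filter on low counts, this separation is not read as a result. The means were 1.38 ± 0.19 and 0.287 ± 0.50 CPM (SD, n = 3 each; two-sided exact permutation p = 0.1). Its log2 fold change of -2.24 (SE 1.87) rests on delipidated replicate 2. Without it the value was -7.40, which depends on the prior count since the delipidated libraries left were at 0. EdgeR's adjusted p was 1.00. At most 4 of its 23 parts had counts in a library. Of the counts, 10 and 14 in control replicates 1 and 2 lay on parts that overlap E130215H24Rik on the opposite strand. Without those parts the counts were 5, 7 and 21 against 0, 14 and 0, and the groups overlapped.

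Acsf2, a mitochondrial enzyme of the ACSF branch, was in the third place by level. It had 339, 180 and 386 counts in control replicates 1, 2 and 3 and 261, 323 and 448 counts in delipidated replicates 1, 2 and 3. The groups overlapped throughout, at 22.9 ± 10.5 and 21.5 ± 9.47 CPM (SD, n = 3 each). The log2 fold change was -0.10 (SE 0.49), and its sign changed with the libraries included. The gene (ENSMUSG00000076435), chr11:94557102-94601871 on the reverse strand, was covered at its last exon with 35, 54 and 53 counts among control libraries against 79, 66 and 53 among delipidated ones, while its first exon had 6 counts in delipidated replicate 3 and 0 elsewhere.

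Acsf3 (ENSMUSG00000015016, chr8:122775486-122817880), the mitochondrial malonyl-CoA synthetase, had 15, 0 and 0 counts among control libraries against 0, 32 and 4 among delipidated ones, on at most 5 of its 17 parts. Acsbg1 (ENSMUSG00000032281, chr9:54604877-54661870), which acts on very long chains, had 128 counts in control replicate 3, 29 in delipidated replicate 3 and 0 in the other libraries. Its level was thus set by 1 library of each group, with 12 and 3 of its 24 parts covered. Without the filter on low counts, edgeR tested all 10 members and called 0 of them.

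The other genes of the pathway gave the same count of calls. Among 15 other acyl-CoA synthetases, the ACSM, bubblegum, SLC27 and remaining members, 10 were tested, 0 were called higher and 0 lower, and 0 had an unadjusted p under 0.05. Their log2 fold changes were positive for 4 and negative for 6, with a median of -0.10. Aacs, which activates acetoacetate, had the smallest p, with 1017, 2204 and 2247 counts among control libraries against 2060, 1836 and 790 among delipidated ones and a log2 fold change of -0.53 (SE 0.33). Slc27a5, known from liver as a bile acid-CoA ligase, had 8, 68 and 16 counts against 235, 54 and 23 and a log2 fold change of 1.45 (SE 1.01). For 1 of the 10 tested, Slc27a2, the delipidated libraries lay above all control libraries, against 3.81% of all genes tested, at 3.57 ± 0.65 and 2.32 ± 0.755 CPM (SD, n = 3 each), and it was named after its values were seen.

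Downstream of the synthetases, acyl-CoA is held by binding proteins and split by thioesterases. Of these 16 genes 12 were tested, 0 were called by edgeR in either direction and 0 had an unadjusted p under 0.05, and DESeq2 and limma-voom called 0 on both lists. The fold change was positive for 3 and negative for 9 genes, and its median was -0.14 on the log2 scale. Acot7, a thioesterase, had 326, 335 and 295 counts among control libraries against 368, 303 and 262 among delipidated ones. In CPM all control libraries of Acot7 lay above all delipidated ones, which held for 1 of the 12 tested against 5.05% of all genes tested, with means of 23.4 ± 3.72 and 18.4 ± 0.23 CPM (SD, n = 3 each) and a log2 fold change of -0.34 (SE 0.37). Acbd4, a binding protein, had 12, 190 and 0 counts against 0, 21 and 60 and a log2 fold change of -1.19 (SE 1.74).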

How the data were processed

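The authors deposited raw counts per exonic part, made from reads called with bcl2fastq 2.20, trimmed with Trimmomatic 0.36, aligned to mm10 with STAR 2.5.2b and counted with featureCounts. Each library lists 425461 parts. Parts of a gene were summed. Of 33309 parts under joined identifiers, 27968 overlap the exons of 1 gene in GENCODE M21 and were assigned to it, and 2.49% to 2.57% of the counts were left out. Of 49644 gene identifiers 49384 were found in that annotation. The test was edgeR 4.0.16 under R 4.3.3 (filterByExpr with minimum count 10 and total 15, TMM, quasi-likelihood test, Benjamini-Hochberg). The common biological coefficient of variation was 0.663. Alternatives used DESeq2 1.42.0 and limma 3.58.1. Named genes are the 10 members, from each other list those with an unadjusted p under 0.05 or else the 2 with the smallest p, and the 3 most like the member with the highest level. Dcn, Col1a2, Pdgfra, Foxl2, Ptx3, Cd44, Cd52, Lyz2, Epcam and Slc27a4 were named after their values were seen. Members and lists were chosen with earlier results of these data known.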

Additional observations from a re-analysis of the deposited data

How the results depend on the processing

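The 0 calls among the members and the 0 calls on both pathway lists held in every alternative run. With 3 libraries per group and a common biological coefficient of variation of 0.663, 0 calls do not show that levels were equal. Over all genes, edgeR without a filter called 5 genes higher and 25 lower, and DESeq2's Wald test with no filter 9 higher and 40 lower, with 0 in the other settings, and the cause was not tested. Fits on the part with most counts, without parts overlapping the opposite strand, with joined identifiers kept and for Acsl3 without its first exon, and levels with 150 bases added to each part, were chosen after the data were seen. The log2 fold changes of Acsl1 and Acsl4 kept their sign, from -1.64 to -0.50 and from 0.17 to 1.27. That of Acss1 was negative from -7.40 to -1.65, with no value at a mean count of at least 50, without overlapping parts or by the part with most counts. By the part with most counts the sign turned for Acsl3 (-0.21) and Acsf2 (0.26). With each library left out, Acsl3 ran from 0.02 to 0.31, Acsl6 from -0.059 (without delipidated replicate 3) to 0.65, Acss2 from -0.16 to 0.99 and Acsf2 from -0.49 to 0.17, where it was positive without control replicate 1 (0.11), control replicate 3 (0.12) or delipidated replicate 1 (0.17). These reversals were smaller than their standard errors, and their cause was not tested. With joined parts left out, Acsl3 has no value. With replicate number as a block, Acsl1 was -1.25, Acsl3 0.20, Acsl4 0.58, Acsl6 0.33, Acss1 -4.53, Acss2 0.46 and Acsf2 -0.05. By the study's methods all libraries come from mixed embryos of the same females, so equal numbers mark no pairs, and their deviations correlated across genes at -0.084, 0.070 and 0.043. In the order of levels, 4 of 10 members kept their place by the median part, where Acsl5, Acsl6, Acss1 and Acsf3 tie at 0 and the count depends on how ties are listed, and 1 of 10 by the last 3′ part, against 8 by the single part with most counts, 8 without overlapping parts, 10 with read length added and 8 to 10 with each library left out. Since a count of 0 allows up to 3 reads, each of which may count in several parts, depth limits what the libraries at 0 show for Acss1, Acsl5, Acsf3 and Acsbg1.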

Other observations

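Among the acyl-CoA binding proteins, Acbd5, which tethers peroxisomes, and Acbd3, a Golgi protein, had the most counts, and both were named after their values were seen. Acbd5 had 3465, 4297 and 2807 counts among control libraries against 4729, 3668 and 3468 among delipidated ones, and Acbd3 had 2690, 2504 and 2072 against 2911, 2878 and 3007. Their log2 fold changes were -0.12 (SE 0.20) and -0.01 (SE 0.24). Among the fatty acid transporters of the SLC27 family, Slc27a4 had the most counts, with 116, 393 and 241 among control libraries against 298, 231 and 185 among delipidated ones.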
